A study of Homo sapiens with 4 samples.

Results

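The long arm of chromosome 16 in BJ-HELT cells carried H3K9me3 in 2 stretches, which held 6.21 and 7.70 regions per Mb with the borders used here. The regions themselves had about the same length and the same count per kb. H3K9me3 is the trimethylation of lysine 9 on histone H3. The assay was ChIP-seq, in which an antibody pulls down sonicated chromatin that bears the mark and the DNA it carries is sequenced. The members were taken from the deposited list of called regions as all regions of chromosome 16 with a midpoint beyond 46 Mb (build hg19) and outside the last 5 Mb of the chromosome. The limit at 46 Mb leaves out the unassembled heterochromatin beside the centromere. There were 257 such regions among 5211 in the list (4.93%, 95% Wilson interval 4.38 to 5.55%) and among 402 on chromosome 16 (63.9%, 59.1 to 68.5%). The stretches lie on either side of 60 to 65 Mb and are called proximal (46 to 60 Mb, nearer the centromere) and distal (from 65 Mb on) here. Both the arm and the 2 stretches were chosen from the number of regions seen in this list, so those numbers are given as a description, and no test was made on them.

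BJ-HELT is an established line of human foreskin fibroblasts immortalized with hTERT, the catalytic subunit of telomerase, and the early region of the virus SV40. The cells were at passage 10 to 11 and had no treatment named in the labels. The 4 libraries were 2 H3K9me3 precipitates, made with a polyclonal antibody, and 2 input DNA libraries from the same line. The values used here are 1 list for all libraries together, so no value has a replicate error, and library depth is unknown. Each region comes with a whole number that has the form of its ChIP read count and is called its count.

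H3K9me3 is written by the methyltransferases SUV39H1, SUV39H2 and SETDB1 and is bound by heterochromatin protein 1 (HP1), which compacts chromatin. The mark is dense over satellite repeats beside centromeres. Within chromosome arms it covers shorter segments, among them transposable elements and clusters of KRAB zinc finger genes, to which the corepressor TRIM28 brings SETDB1. Chromosome 16 has one of the large blocks of constitutive heterochromatin in the human karyotype, at the top of its long arm, which is made mainly of satellite DNA and is unassembled in hg19. In the list, no region lay between 35285801 and 46463200 (11.2 Mb), a stretch that takes in the centromere and this block. Genes were not placed on the regions, since no annotation of hg19 was used, and no sequence of a region is printed for the same reason.

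The members were of moderate length and count, with fewer counts per kb than other autosomal regions at the median (28.7 against 31.2). At equal length the difference was small, with a median ratio of 0.99 over 251 members. They covered 1146.2 kb and held 33836 counts, which was 54.2% of the covered length of chromosome 16 and 32.9% of its count. Lengths ran from 1.4 to 23.2 kb with a median of 4200 bp and quartiles of 3200 and 5200 bp. Counts ran from 56 to 905 with a median of 115 and quartiles of 94 and 146. Divided by length, the count had a median of 28.7 per kb, quartiles of 26.6 and 32.5, and a range of 22.6 to 61.4. No member was 1 kb or shorter, and 5 were 10 kb or longer.

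With the borders as set, regions were more frequent in the distal stretch than in the proximal one. They were sparse between the stretches, though not only there. The proximal stretch held 87 regions in 14 Mb (6.21 per Mb), the distal stretch 157 in 20.4 Mb (7.70 per Mb), and the 5 Mb between them 13 (2.60 per Mb). Covered length followed the same order, with 27.1 kb per Mb in the proximal stretch, 34.9 in the distal stretch and 10.8 between them. With these borders the distal stretch had 1.24 times the regions and 1.29 times the covered length of the proximal stretch per Mb. The proximal side includes sparse bins next to its border, since those starting at 57, 58 and 59 Mb held 3, 2 and 2 regions. Inside the distal stretch, the bins starting at 67, 68 and 69 Mb held 0, 5 and 1. The ratio for regions was 1.17 with borders at the first and last member of each stretch. A border at 57 Mb, which would leave out the sparse proximal bins and lower both ratios, was not tried. The ratios thus hold only for the borders as set. Each stretch held 1 large cluster, of 37 regions in the distal and 18 in the proximal stretch. Without the largest cluster of each and its span, 120 distal regions (6.25 per Mb, 28.6 kb per Mb) stood against 69 proximal ones (5.22 per Mb, 22.4 kb per Mb). The ratios were then 1.198 for regions and 1.28 for covered length, close to those over all members. Without the largest distal cluster alone they were 1.01 and 1.05, which removing the densest part of 1 side only lowers by construction.

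**Figure D1:**
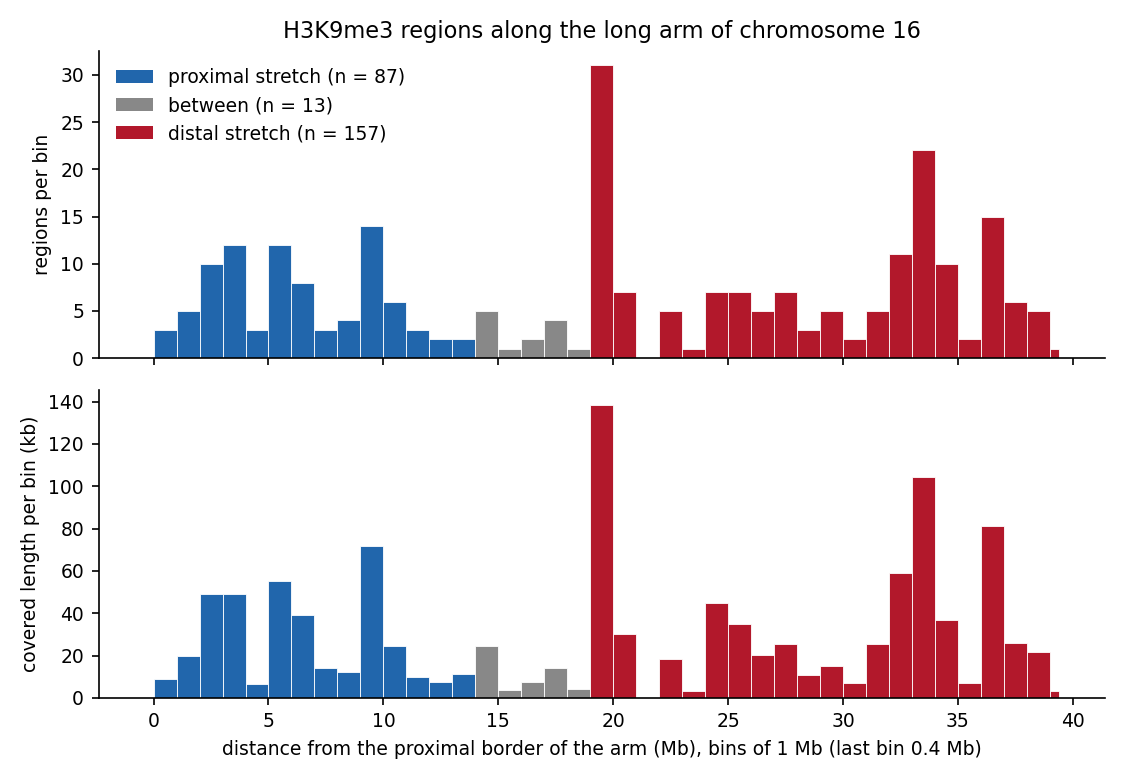
Number of H3K9me3 regions (top) and covered length in kb (bottom) in bins of 1 Mb along the long arm of chromosome 16, by distance from the 46 Mb border. Bars are coloured by stretch. The tallest bar, 31 regions and 138.4 kb, stands at the start of the distal stretch, and the 5 bins between the stretches hold 1 to 5 regions each.

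Within each stretch the regions were bunched. Over the 39 whole bins of 1 Mb, the number of regions had a median of 5 and ranged from 0 to 31, with a variance 5.62 times the mean (3.60 times without the bin of 31). The 9 bins with at least 10 regions held 53.5% of the regions in these bins. Of those 9 bins, 4 were in the proximal stretch (starting at 48, 49, 51 and 55 Mb) and held 48 of its 87 regions. The other 5 were in the distal stretch (starting at 65, 78, 79, 80 and 82 Mb) and held 89 of its 157. The only empty bin started at 67 Mb. Neither stretch was evenly filled, and the variance was 2.83 times the mean in the proximal bins and 7.08 times in the distal bins (4.08 times without the bin of 31).

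Regions of the 2 stretches differed little in size and in count per kb. The median length was 4000 bp in the proximal stretch (quartiles 3100 and 4800 bp) and 4400 bp in the distal stretch (3200 and 5400 bp). The binomial 95% intervals of these medians, 3600 to 4400 bp and 3800 to 4600 bp, overlapped. The median count was 110 in the proximal and 118 in the distal stretch. The median count per kb was 29.3 (quartiles 26.4 and 32.5) in the proximal stretch and 28.6 (26.6 and 31.8) in the distal stretch, with intervals of 27.4 to 30.6 and 28.0 to 29.6. The 13 regions between the stretches had medians of 3600 bp and 29.1 counts per kb, so the sparse segment was poor in regions but its regions resembled the others. The intervals treat regions as independent and cover neither the spread between libraries nor that of the calling.

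Because count and length were tightly linked, the 2 stretches were also compared at equal length. Across regions, which are not replicates and share the same libraries, the rank correlation of count with length was 0.94 over the 257 members. It was 0.89 over the 87 proximal and 0.96 over the 157 distal regions. There were 13 lengths, from 1.8 to 5.8 kb, with at least 3 regions in each stretch. At these lengths the distal median count was higher at 9 and lower at 4, and the median ratio of distal to proximal was 1.01, with a range of 0.92 to 1.10. At 3.6 kb, 6 proximal regions had counts of 95 to 110 and 12 distal regions had counts of 93 to 127, with medians of 101.5 and 103. At 4.6 kb, 6 proximal regions had 112 to 151 and 9 distal regions 104 to 135, with medians of 124 and 123. The ranges of the 2 stretches overlapped at both lengths.

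**Figure D2:**
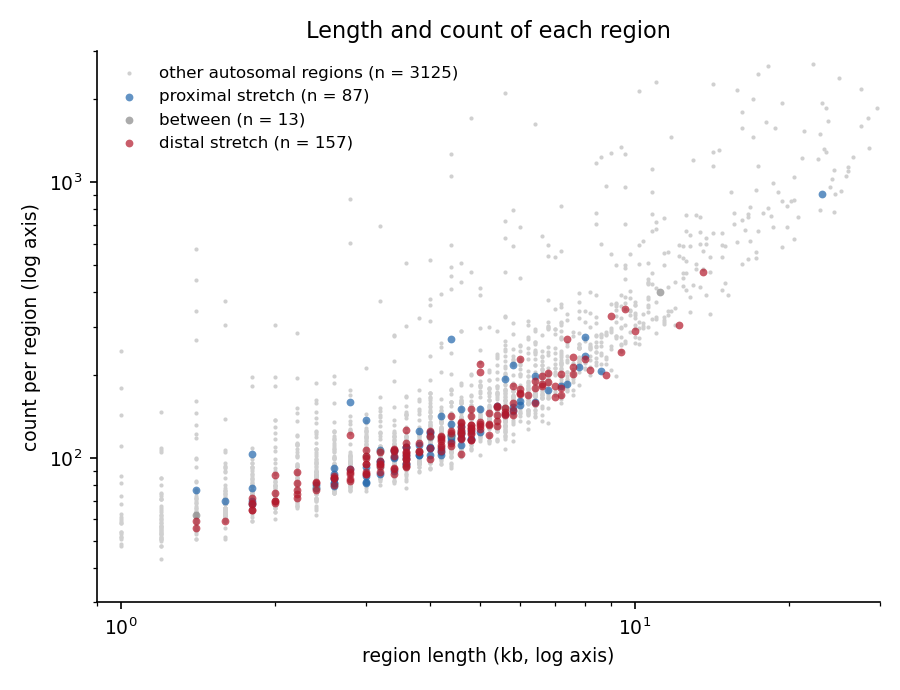
Count against length in kb for every region, both on log axes. Coloured points are the 257 members by stretch and grey points the other autosomal regions, of which 185 of 3125 lie outside the axes. The members form a narrow band that lies within the grey points and does not reach the highest of them. At equal length the median ratio of members to other autosomal regions was 0.99. The proximal and distal points overlie each other.

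The count per kb fell with length among the shorter members, and its median did not fall further beyond 6 kb. Its rank correlation with length was -0.55 over 257 regions, against -0.29 over the 3125 other autosomal regions. Members of 2 kb or less numbered 20 and had a median of 38.6 counts per kb, with none below 34.5. Those of 3.2 to 4 kb numbered 64, with a median of 29.2 and none below 24.8. Those of 4.2 to 5 kb numbered 61, with a median of 26.9 and none below 22.6. Above these, the median was 26.7 at 5.2 to 6 kb (30 members), 27.8 at 6.2 to 8 kb (27) and 28.8 at 8.2 to 30 kb (11). None of these longer members was below 22.8. The lowest count per kb found in the list was thus higher among short members than among long ones. The threshold of the calling is not given in the sources used here, so its part in this relation was not tested.

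The count per kb did not change steadily with distance from the heterochromatin. By bin of 5 Mb, the median was 29.5 counts per kb from 46 to 50 Mb (30 regions), 27.6 from 50 to 55 Mb (30), 30.6 from 55 to 60 Mb (27) and 29.1 from 60 to 65 Mb (13). Beyond that it was 29.2 from 65 to 70 Mb (44 regions), 31.7 from 70 to 75 Mb (29), 27.5 from 75 to 80 Mb (45) and 28.7 from 80 to 85 Mb (38). The highest and the lowest of these 8 medians lay next to each other in the distal stretch. Spearman's rho between count per kb and distance was -0.09 over 257 regions (Pearson's r = -0.17). It was -0.02 over the 87 proximal regions (r = -0.20) and -0.17 over the 157 distal ones (r = -0.21), and -0.10 over the 143 distal regions outside 70 to 72 Mb. When each count was instead divided by the median count of other autosomal regions of the same length, rho was -0.05 over 251 regions, -0.13 over 86 proximal regions (r = -0.24) and -0.01 over 153 distal regions. Without the first Mb, this proximal rho was -0.04 (r = 0.03, 83 regions). These correlations are descriptions across regions of 1 list.

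Values were highest at the edge itself. The 3 members in the first Mb, within a span of 16.8 kb, had the 3 highest counts per kb of the arm. The first lay at 46463201 to 46467600 and held 270 counts over 4.4 kb, or 61.4 per kb (exact Poisson 95% interval 54.3 to 69.1). The next, at 46474401 to 46477200, held 160 counts (57.1 per kb, 48.6 to 66.7), and the third, at 46478201 to 46480000, held 104 (57.8 per kb, 47.2 to 70.01). Set against other autosomal regions of equal length, their counts were 2.26, 1.80 and 1.41 times the median. All 3 intervals lay above the arm's median of 28.7, and they overlapped one another. These counts are unscaled for input, and how reads that match several places were treated is not given. The part this played beside the unassembled block was not tested.

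Beyond these 3 regions came an empty stretch of 1.27 Mb (46480001 to 47752400). The 5 regions between this gap and 48 Mb were at 32.8 counts per kb at the median, and 4 of them had more counts than the median of other autosomal regions of equal length. The first, at 47752401 to 47757000, had 28.5 counts per kb (1.06 times that median). The next, at 47872601 to 47878400, had 37.4 (interval 32.6 to 42.7, above the arm's median) and was 1.34 times that median. The fourth highest value of the arm, 55.0 per kb over 1.4 kb (interval 43.4 to 68.7), lay at 47888001 to 47889400 and was 1.18 times it. The last of the 5 with a ratio above 1 was at 47983201 to 47987800 (32.8 per kb, 1.22 times), and the region at 47903201 to 47906800 had 26.4 (0.92 times). No member beyond 48 Mb exceeded 45.7 counts per kb, the value of a region at 57739401 to 57742400 with 137 counts. Without the first Mb, Spearman's rho over the arm was -0.05 (254 regions) and Pearson's r was -0.09, and in the proximal stretch rho was 0.09 and r was 0.05 (84 regions). The weak negative correlation of the proximal stretch thus rested on the 3 regions at the edge.

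**Figure D3:**
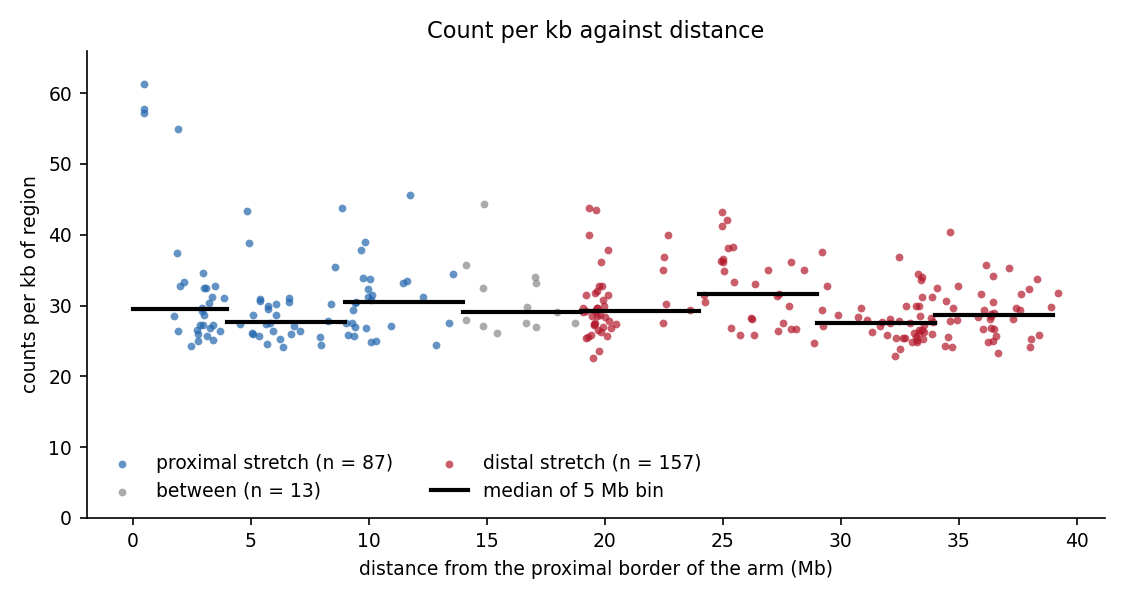
Counts per kb of each of the 257 members against distance from the 46 Mb border in Mb, coloured by stretch, with black lines for the medians of 5 Mb bins. The 3 members in the first Mb stand at 57.1 to 61.4, and the medians of the bins stay between 27.5 and 31.7 from one end of the arm to the other.

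The number of regions did not fall steadily with distance from the edge inside the proximal stretch, although it did so in large bins. Bins of 4 Mb and then 5 Mb from the edge held 7.5, 6 and 5.4 regions per Mb up to 60 Mb, then 2.6 between the stretches. Across the 14 proximal bins of 1 Mb, rho of region number with distance was -0.37, and across the 87 proximal regions the rho of the gap to the next region with distance was 0.27. The first of these bins held only 3 regions, and the fullest, from 55 to 56 Mb, held 14. The bins starting at 57, 58 and 59 Mb, beside the sparse segment, held 3, 2 and 2, and rho without them was not computed. In the distal stretch the 4 whole bins of 5 Mb held 8.8, 5.8, 9 and 7.6 regions per Mb, and rho of region number with distance was 0.10 across its 20 whole bins of 1 Mb. The rho of the gap with distance was 0.19 over 156 distal gaps, the same sign as in the proximal stretch. Pearson's r of the gap with distance was 0.01 in the distal and 0.17 in the proximal stretch. The largest cluster opens the distal stretch, and rho without it was not computed. Length had a rho against distance of 0.07 over the arm, -0.07 in the proximal and 0.01 in the distal stretch. These values carry no test.

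Neighbouring regions were closer in the distal stretch. The median gap was 82.0 kb over 86 proximal gaps (quartiles 23.1 and 177.9 kb) and 46.3 kb over 156 distal gaps (15.6 and 127.5 kb). Between the stretches it was 190.8 kb over 12 gaps. Gaps under 100 kb made up 55.8% of proximal and 71.8% of distal gaps. Of the 256 gaps of the arm, 12 were under 2 kb and 41 under 10 kb. At the other end, 21 gaps were 500 kb or longer and 3 were over 1 Mb.

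**Figure D4:**
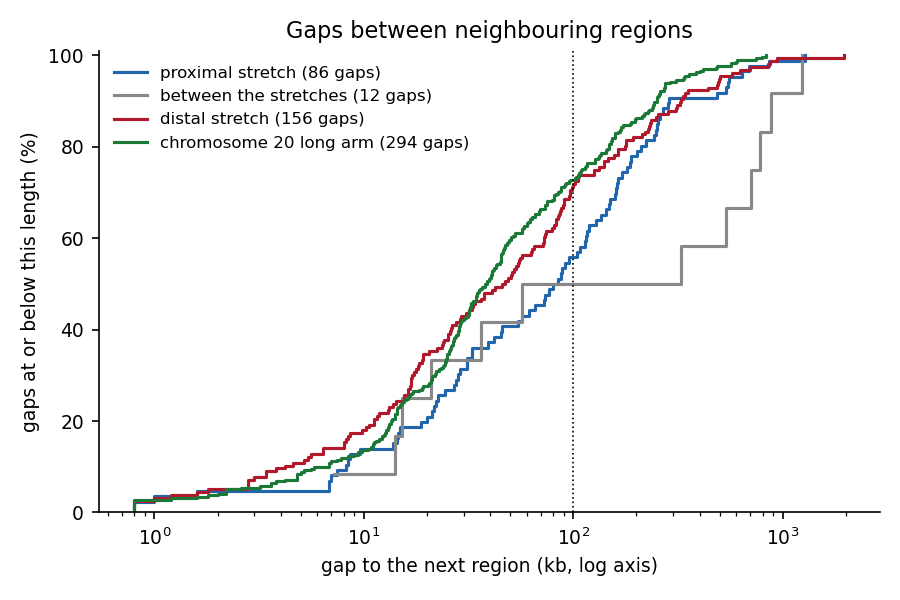
Cumulative share of gaps between neighbouring regions, in percent, against gap length in kb on a log axis, for the proximal stretch, the 5 Mb between the stretches, the distal stretch and the long arm of chromosome 20 from 30 to 58 Mb. The dotted line marks 100 kb, which 55.8% of proximal and 71.8% of distal gaps are shorter than.

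Joining regions under 100 kb apart gave 40 clusters of at least 2 members, which took in 206 regions, and left 51 alone. The distal stretch had 23 clusters with 135 of its 157 regions (85.99%), and the proximal stretch 13 with 61 of 87 (70.1%). Most clusters were small, with a median of 3 members, and 10 had at least 5. The 5 with the most members held 98 regions (38.1%) in 3.58 Mb, which was 9.08% of the arm. They held 41.2% of its covered length.

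The largest cluster opened the distal stretch. Its 37 regions lay between 65074401 and 66274000, covered 164.6 kb or 13.7% of that span, and were separated by a median gap of 18.0 kb. Their lengths ran from 1.8 to 9.4 kb with a median of 4800 bp. Their counts per kb ran from 22.6, the lowest of the arm, at 65510801 to 65515400, to 43.8, the highest of the distal stretch, at 65308401 to 65313400. The median of 29.1 was close to that of the arm, so the cluster stood out by the number of its regions and not by their counts. Against other autosomal regions of equal length, 15 of the 37 had a higher count, and the median ratio was 0.99.

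As background from general maps of the chromosome, the sparse segment and this cluster fall in a gene-poor part of the arm, in band 16q21, where genes of the cadherin family of adhesion proteins lie far apart. In the RefSeq gene table (GRCh38.p14, used only for the order of genes) CDH8, CDH11 and CDH5 follow one another with 0 other protein-coding genes between them. CDH8 is a neuronal cadherin, CDH11 is a cadherin of mesenchymal cells and CDH5 is VE-cadherin of endothelium. The next cadherins in that order, CDH3 and CDH1 (P- and E-cadherin of epithelia), are separated from CDH5 by 75 protein-coding genes. Whether any region overlaps any of these genes was not computed.

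The next 4 clusters by number of regions had medians of 26.6 to 31.3 counts per kb. On the distal side, 19 regions lay between 78909201 and 79534800 (90.8 kb covered, median 26.6 counts per kb) and 16 between 81953801 and 82649000 (84.0 kb, median 28.3). On the proximal side, 18 regions lay between 48713201 and 49486400 (83.6 kb, median 28.0) and 8 between 55842201 and 56125800 (49.4 kb, median 31.3). In the cluster of 8, a single region made up 23.2 of the 49.4 kb and held 905 of 1684 counts. The median gap inside these 4 clusters was 20.7, 19.2, 39.2 and 24.4 kb in the order given. Regions in each of them covered between 10.8 and 17.4% of the span, so most sequence inside a cluster was outside any called region.

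Among the 10 clusters with at least 5 members, a smaller cluster was denser than the others. Its 6 regions at 70925601 to 71044800 covered 47.4 kb, or 39.8% of a span of 119.2 kb, whereas the other clusters with at least 5 members covered 7.73 to 17.4% of theirs. Their median gap was 2.8 kb and their median length 8200 bp. Their median of 36.5 counts per kb was the highest among the 10 clusters with at least 5 members, and the next was 31.3. Some clusters with fewer than 5 members had a higher covered share (up to 67.9%) or a higher median count per kb (up to 57.8). The pair of regions that followed these 6, up to 71201400, had 42.1 and 38.2 counts per kb.

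The 8 regions of this segment had similar counts per kb, between 34.9 and 43.2, and the Poisson interval of each lay above the arm's median. Against other autosomal regions of equal length, 4 of the 6 that had enough such regions were higher, with ratios from 0.84 to 1.51. In general maps this part of the arm holds HYDIN, a very long gene for a protein of motile cilia. HYDIN has a near-identical partial copy on another chromosome, so the origin of reads there is uncertain. How the authors treated reads that match several places is not given in the sources used here, and the part this played in the counts was not tested. Overlap with the gene was not computed.

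Long members were few. The 10 longest measured 8.6 to 23.2 kb and held 10.1% of the covered length and 10.9% of the count. The longest, at 55842201 to 55865400 in the proximal stretch, spanned 23.2 kb and also held the highest count, 905, or 39.0 per kb (interval 36.5 to 41.6). The next, 13.6 kb at 71031201 to 71044800, held 475 counts (34.9 per kb, 31.9 to 38.2) and belonged to the dense segment, as did 1 of 9.6 kb with 347 counts at 70992801 to 71002400 and 1 of 9 kb with 327 counts at 70925601 to 70934600. A region of 11.2 kb at 60109801 to 60121000, in the sparse segment, held 400 counts (35.7 per kb, 32.3 to 39.4). These 5 regions were also the 5 with the highest counts.

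The other 5 of the 10 longest had 22.8 to 28.8 counts per kb, against 34.9 to 39.0 in the 5 above. The 5 above are those with the highest counts, a choice that favours high counts per kb by construction. Their lengths overlapped with those of the other 5. The pair at 82363001 to 82373000 (10.0 kb) and 82444401 to 82456600 (12.2 kb), both in the distal stretch, had 288 and 305 counts, or 28.8 and 25 per kb. A region of 9.4 kb at 65418801 to 65428200 had 25.9 counts per kb, one of 8.8 kb at 78305201 to 78314000 had 22.8, and one of 8.6 kb at 52351401 to 52360000 had 24.1.

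Counting error was set beside the spread between members. The exact Poisson 95% interval of the count per kb held the arm's median in 216 of 257 regions (84.0%), lay above it in 34 and below it in 7, so 41 regions lay outside. Of the 34, 20 were 3 kb or shorter, as the relation of count per kb to length implies. The 8 regions of the dense segment and the 3 at the edge were among them. The 7 below were 4.6 to 12.2 kb long, and 6 of them were in the distal stretch. Intervals cover counting error only, and duplicate reads would make them too narrow.

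Neighbours were at most weakly alike in count per kb and in length. Over 256 pairs of neighbouring members, rho was 0.06 for count per kb and 0.03 for length. For the 166 pairs under 100 kb apart it was 0.09 and 0.01. In the proximal stretch rho for count per kb was 0.19 over 86 pairs, and over the whole arm without the first Mb it was 0.04 over 253 pairs. Clusters were therefore groups of regions close in position and varied in size.

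Each of the 3 longest empty spans fell in another part of the arm. The longest, 1.96 Mb (66491601 to 68454800), was distal. It came after a lone region of 115 counts (66487401 to 66491600), which stood 213.4 kb past the largest cluster. The region on its far side, at 68454801 to 68456800, measured 2.0 kb. The second was the 1.27 Mb next to the edge described above, and the third, 1.23 Mb (61421601 to 62649200), lay between the stretches, bounded by regions of 94 and 99 counts. A further 0.94 Mb (68652401 to 69589600) was empty soon after the longest one, so 66491601 to 69589600 held few regions. General maps place a gene-rich part of the arm, band 16q22.1, after CDH5 and around CDH3 and CDH1. Few regions were thus called both in the gene-poor segment from 60 to 65 Mb and in this one, and neither pattern was tested against gene content. An empty span means that nothing was called there at a threshold that is not known, and says nothing of lower levels of the mark.

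Between 60 and 65 Mb the 13 regions came in small groups. Of these, 5 lay from 60090801 to 60884000, and the pair at its start, of 3.8 and 11.2 kb, was 15.2 kb apart. A single region of 3.6 kb with 94 counts followed at 61418001 to 61421600. Next came 2 regions at 62649201 to 62713400 with 99 and 119 counts, and 3 at 63038401 to 63077400 with 102, 124 and 106. The last 2 stood alone, at 63952601 to 63955800 (93 counts) and 64732001 to 64736400 (121 counts). Apart from the region of 400 counts, the group had counts of 62 to 152. Against other autosomal regions of equal length, the 12 that could be compared had ratios of 0.91 to 1.10.

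At each border, the nearest region on either side is given. Such a pair, of unlike length, cannot show whether values change in a step there. The last region before 46 Mb, at 35263601 to 35285800 on the near side of the centromere, had 120.9 counts per kb over 22.2 kb, against 61.4 in the first member. At 60 Mb, the last proximal region (59548801 to 59556800, 8.0 kb) had 34.5 counts per kb and the region after it 27.9. At 65 Mb, the region before (64732001 to 64736400) had 27.5 and the first distal region (65074401 to 65080400) had 29.7. At the distal limit, the last member (85216601 to 85220000, 108 counts) had 31.8 and the first region outside had 32.8.

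The arm was set beside the rest of chromosome 16, the long arm of chromosome 20 and the other autosomal regions, without a test, since all come from the same list. The 130 regions of chromosome 16 before 46 Mb, which include those beside the centromere, were longer and denser, with medians of 4600 bp and 34.0 counts per kb. Of them, 16.2% were 10 kb or longer, against 1.95% in the long arm. Their upper quartile of length was 8000 bp, against 5200 bp. The 15 regions beyond the distal limit had 31.4 counts per kb at the median, and 2 of them were 1 kb or shorter, a size that the 257 members lacked. Among the 3125 other autosomal regions, 123 (3.94%) were that short, the median was 31.2 counts per kb, and 24.0% had more than 40 counts per kb, against 5.45% of the members.

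The regions of the long arm of chromosome 20, taken from 30 to 58 Mb, were the most alike of these. They numbered 295, or 10.5 per Mb against 6.52, and their median gap was 38.2 kb against 56.2 kb. Their median length was 4200 bp, as on chromosome 16, and their median count per kb was 28.6, against 28.7. Regions of 10 kb or more made up 2.03%, and those over 40 counts per kb 5.08%. The 2 arms thus differed in how closely the regions were spaced and had nearly equal median lengths and counts per kb. Against autosomal regions of equal length outside the arm, 144 of 251 members had a lower count, 100 a higher one and 7 the same, with a median ratio of 0.99 and quartiles of 0.93 and 1.05.

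**Figure D5:**
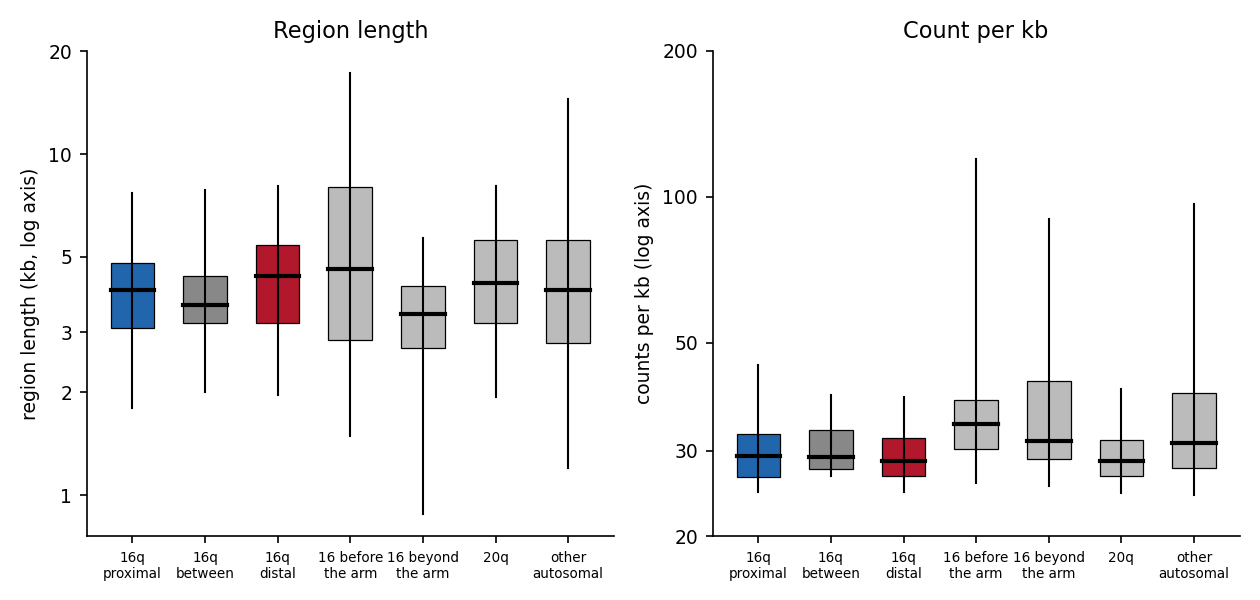
Region length in kb (left) and counts per kb (right), both on log axes, for the 3 parts of the long arm of chromosome 16, the rest of chromosome 16 before and beyond it, the long arm of chromosome 20 (30 to 58 Mb) and the other autosomal regions. Boxes span the quartiles with the median as a line, and whiskers run from the 5th to the 95th percentile. The 3 parts and chromosome 20 have medians of 28.6 to 29.3 counts per kb, and chromosome 16 before 46 Mb has 34.0.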

How the data were processed

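ChIP-seq libraries (2 H3K9me3 precipitates and 2 inputs) were made for SOLiD sequencing, per the labels' protocols. The submitters' processing notes name the aligner Bowtie and the region caller SICER, on hg19 (GRCh37), and record no version or setting. The count of each region was used as deposited by the authors, unscaled for length, depth or input. The column has no name: starts on a grid of 200 bp, counts of at least 27 and the layout of a SICER list led to reading it as ChIP reads. Pooling before calling is not stated.

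Positions are printed from 1. Members were chosen by midpoint, and members, stretches and comparisons were chosen with earlier results of these data known. Named are the 10 longest members, the 5 with the highest count and count per kb, the first and last of each stretch, those between 60 and 65 Mb, those beside the 3 longest gaps and the 5 largest clusters. Other members were named after their values were seen. Clusters join regions under 100 kb apart. Equal-length medians used lengths with at least 10 other autosomal regions. Gene lists planned for an hg19 annotation were not run. Counts of 1 region have exact Poisson, shares Wilson and medians binomial 95% intervals. Cluster and correlation code was tested on simulated data. Python 3.11.15, numpy 2.4.6, pandas 2.3.3, scipy 1.17.1 and matplotlib 3.10.9 were used.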

Additional observations from a re-analysis of the deposited data

How the results depend on the processing

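No paired analysis was possible because all libraries share 1 list of regions, which also kept single replicates from being left out. Of 61 alternatives, 47 stayed within 1.5 times of a count or ratio, or within the 95% interval of a median or correlation (for correlations, a Fisher interval across regions, as a yardstick only), and 14 did not. The 11 chosen after the data were examined were those on members of 3 to 6 kb, on counts at equal length, on the members from 70 to 72 Mb and on the largest clusters. Leaving out the largest cluster of the distal stretch alone gave ratios of 1.01 for regions and 1.05 for covered length, which removing the densest part of 1 side only lowers by construction. Keeping only regions whose count reached the list median of 112, which selects long regions by construction, left 136 regions in the arm, 43 proximal and 88 distal. Their median lengths were 5100, 4800 and 5300 bp and their median gaps 98.2, 135.8 and 77.8 kb, in the same order, with medians of 27.5 counts per kb over the arm and 27.5 in the distal stretch. A join distance of 500 kb gave 17 clusters over the arm, 6 in the proximal and 8 in the distal stretch. Leaving out regions of 1 kb or less changed nothing, since there were none, and leaving out the first Mb could not change the distal stretch. Both kinds are among the 47, so that number overstates how far the results were tried. Of the correlations, 2 changed sign, both near 0: count per kb in the proximal stretch became 0.09 without the first Mb, and length in the distal stretch became -0.10 among regions that reached the list median. With 3 to 6 kb members, the distal correlation of count per kb was -0.03. Depth limits are unknown.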
